A study of Marmota monax with 20 samples.

Results

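Described here are the 150 of 30973 annotated genes whose levels in woodchuck liver, kidney and spleen had the largest share of variation between individuals. The number 150 is a fixed size of the list. The table of read counts was taken from the RNA-seq of 20 libraries of 7 tissues from 6 adult Eastern woodchucks (Marmota monax) without woodchuck hepatitis virus. Liver, kidney and spleen were all available from 5 of them, F6849, F9150, M4046, M4075 and M4091, and these 15 libraries define the 150 genes. Liver alone was sequenced from F6852, heart and lung only from F6849, and pancreas and thymus only from F9150, so that 5 libraries took no part in the selection. The letters F and M in the names were read as female and male, since the study calls F6849 a female and used both sexes. F6849, a colony-born animal, is also the source of the genome sequence to which all reads were mapped. Other details of age were not used here. Each library is 1 sample of 1 tissue, and total counts ran from 59487004 to 140252555 over the 20 libraries.

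The members were chosen by their own counts. Counts were divided by a size factor for each library, which gives the normalised count N, and levels were compared as log2(N + 5), where the added 5 keeps low counts from giving large differences. Of 16173 genes with a mean N of at least 100, 3262 had individual means at least 1 log2 unit (2-fold) apart. Among these the 150 with the largest share of the sum of squares between animals were kept. That the members differ between the 5 animals in liver, kidney and spleen is therefore the definition of the list and not a result, and values from those libraries are given as a description without a test.

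In an outbred mammal the level of a gene can differ between individuals in every tissue at once. Inherited variants in regulatory sequence, genes that are missing or repeated in some animals and genes on the sex chromosomes are known to act in this way, as do hormones, diet, infection or time of day, which reach many organs together. The identifiers of the table come without gene names and matched none of the woodchuck genes of RefSeq, so that no role is given for any member and each is described by its identifier. In pieces of tissue, fewer cells of a type and less RNA per cell cannot be told apart.

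Between animals lay 56.6% to 98.4% of the sum of squares of the members (median 67.7%), and between tissues 0.00679% to 39.0% (median 16.2%). Over the 16173 genes with the same minimum level the median share was 6.66% between animals and 82.2% between tissues, and the animal share was the larger in 1290 of them (7.98%). The last genes inside the limit of 150 were Monax4B029875 with 56.68% and Monax4B016629 with 56.62%. The first outside were Monax4B033768 with 56.53% and Monax4B008229 with 56.46%, so the limit does not lie at a gap in the values. The plot of both shares shows the members as the upper left end of a continuous cloud.

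**Figure D1:**
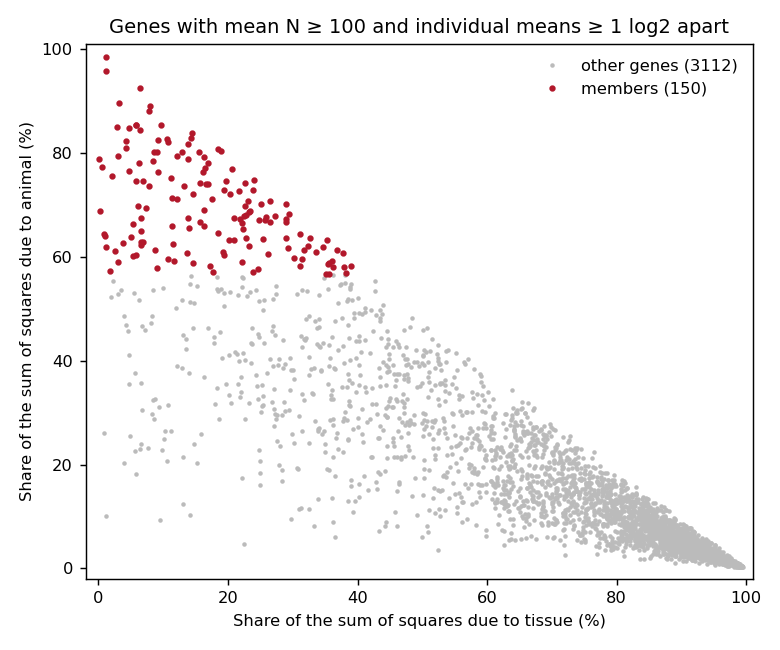
Share of the sum of squares due to animal (vertical axis, %) against that due to tissue (horizontal axis, %) for 3262 genes with a mean N of at least 100 and individual means at least 1 log2 unit apart, each point being 1 gene. The 150 members (red) lie at 56.6% or more on the vertical axis and at 39.0% or less on the horizontal axis, while most other genes (grey) sit at the lower right.

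The highest and the lowest individual mean of a member were 2.00-fold to 1008-fold apart on the scale of N + 5 (median 3.57-fold). The ratio was at least 4-fold in 66 members and at least 16-fold in 25. Mean levels of the members ran from an N of 102 to 140982 (median 563). By mean N, 69 members were highest in spleen, 51 in liver and 30 in kidney. The selection works against genes of 1 organ, and the same counts over all genes are not given here. Together the members held 0.164% to 0.876% of the counts of a library. In 136 of them a count above 0 was found in all 15 libraries, and none met the condition of at most 3 counts in every library of the low animals with at least 50 in every library of the high ones. With a limit of 10 counts there was again none.

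Each member was split at the largest gap between its 5 individual means, which places the animals on a high and a low side. This gap had a median of 0.99 log2 units and reached 7.25. In 81 members 1 animal stood against 4, which is 54.0% of them, beside 62.4% of the 3262 genes that passed the level and the range. The lone animal was the high one in 31 members and the low one in 50. All 30 possible patterns were found, as they were among the 3262 genes, and 13 of them in at least 5 members. F6849 stood alone in 24 members (high in 11, low in 13), F9150 in 18 (7 and 11), M4075 in 16 (6 and 10), M4091 in 14 (3 and 11) and M4046 in 9 (4 and 5). Every animal was therefore the odd one for some members, as it was for some of the 3262 genes. Among those genes F6849 was alone high in 378 and alone low in 195, and F9150 in 149 and 314. For M4075 these counts were 163 and 76, for M4091 96 and 431, and for M4046 135 and 100.

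The split held within the tissues too, as the selection makes likely, since the same libraries chose the members and set the sides. The counts that follow therefore describe the list, and no share over other genes stands beside them. The high and the low animals did not overlap in liver for 145 of the 150 members, in kidney for 143 and in spleen for 142. In all 3 tissues this was so for 130 and in the remaining 20 for 2 of them. The mean difference between the sides had the same sign in every tissue for every member. Its median was 1.55 log2 units in liver, 1.28 in kidney and 1.50 in spleen. In 72 members every library of the high animals lay above every library of the low ones whatever the tissue, so that the kidney of a high animal exceeded the liver of a low one as well.

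**Figure D2:**
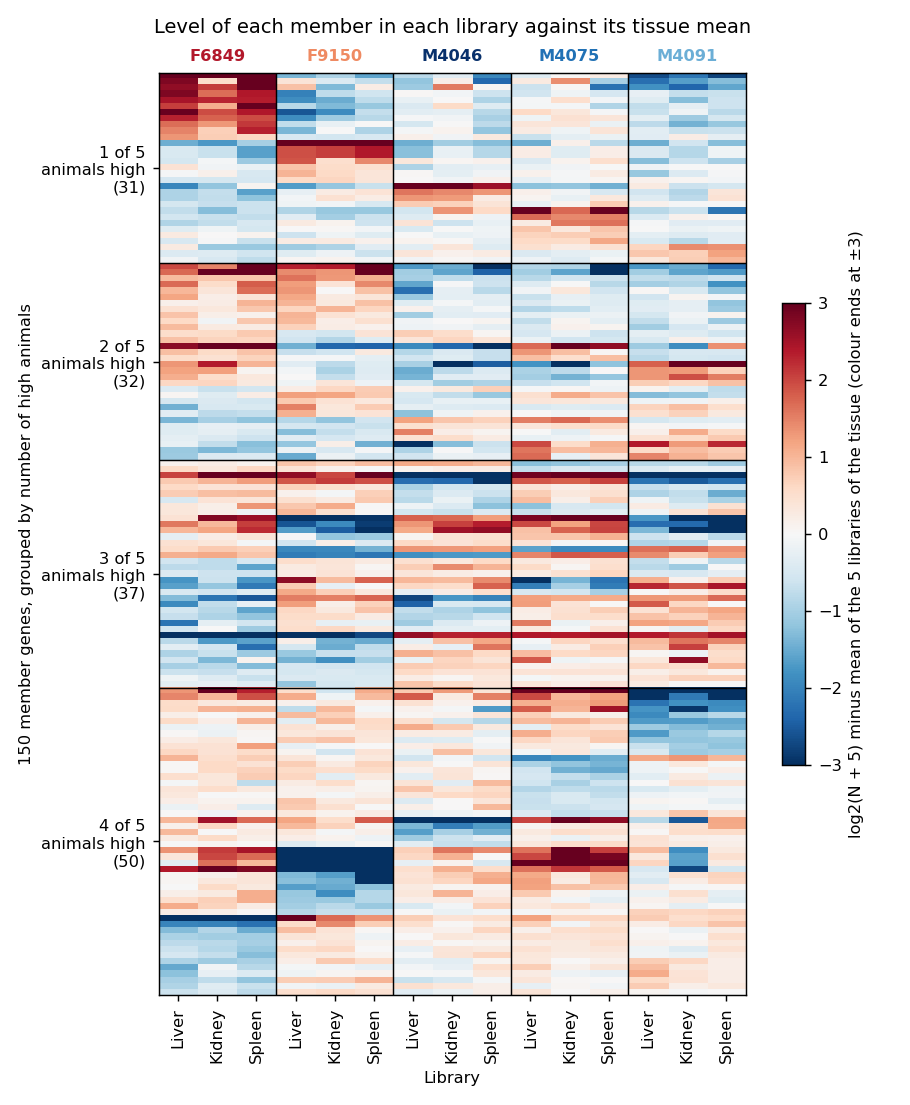
Level of the 150 members (rows, grouped by the number of animals on the high side) in the 15 libraries (columns, grouped by animal), as log2(N + 5) minus the mean of the 5 libraries of the same tissue, with colours ending at 3 log2 units either way. The colour runs across the liver, kidney and spleen of an animal, and 31, 32, 37 and 50 members have 1, 2, 3 and 4 animals on the high side.

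The difference among the 5 animals was also tested for all genes, with tissue as a term, to give the background. Of the 20729 genes with counts enough for the fit, 183 (0.883%) differed among the animals by edgeR's quasi-likelihood test at a false discovery rate of 0.05. DESeq2's likelihood ratio test called 2283 of the same genes (11.0%). All 150 members were tested, and edgeR called 72 and DESeq2 143 of them. These calls rest on the libraries that chose the members and support nothing further. With 1 animal left out, edgeR called 29 to 47 members and 48 to 129 of all genes. Both counts were lowest without M4075 and highest without M4091, and fewer animals enter these fits.

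Females and males were on opposite sides in 20 members, 9 with the 3 males above and 11 with the 2 females above. Among the 3262 genes past level and range this split was found in 321, 176 with the males above and 145 with the females above. A split by sex was therefore not particular to the members, and whether it was more frequent among them was not tested. Monax4B010766 had the largest animal share of the 16173 genes, 98.4%. Its N was 166, 126 and 98.1 in liver, kidney and spleen of F6849 and 306, 207 and 366 in those of F9150. The 9 libraries of the males held 7934 to 18840.2 (median 13996), with no overlap, and the mean difference was 6.00 log2 units. Counts were above 0 in every female library. The 5 libraries outside the selection are all from females and all were on the low side. N was 410.1 in the F6852 liver. It was 169.7 (heart), 187 (lung), 158 (thymus) and 939 (pancreas) in the other 4, below the lowest male library. In Monax4B028876 the males held 1028 to 1714 (median 1241) and the females 427 to 847 (median 800.4), a difference of 0.86 log2 units, and here heart (1185) and thymus (1550.3) of females reached the level of the males. A level in another tissue can thus lie on either side, which is why the libraries outside the selection are read as counts over members.

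The females were high in Monax4B042491. F6849 had an N of 60.0, 33.9 and 1049.6 in liver, kidney and spleen and F9150 one of 78.0, 67.5 and 829.3. In the 9 male libraries N was at most 4.07, with a median of 0, and no library overlapped. The liver of F6852 held 6.61 (3 counts), above every male library but far below the livers of F6849 and F9150, and pancreas of F9150 held 0. Monax4B004412, named after its values were seen, had a similar profile. Its spleens held 1592 in F6849 and 807 in F9150, the 9 male libraries had a median of 0 and a maximum of 17.3, and the F6852 liver held 0. Neither gene was thus at the level of F6849 and F9150 in the liver of the remaining female. The count of 0 for Monax4B004412 in that liver does not show that its RNA was absent. Monax4B025250 was 0.99 log2 units higher in the females, 649 to 1188 (median 916) against 230.2 to 659.7 (median 454), and the groups overlapped once tissues were pooled. The most abundant member, Monax4B016555, had a mean N of 140982, with 336043 and 330244 in the livers of F6849 and F9150 and 67520.4, 92885 and 98977 in those of the males. The F6852 liver lay between at 217907.

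F6849 alone was high in 11 members. Monax4B023275 was measured at an N of 4903, 2015 and 5826 in liver, kidney and spleen of F6849, while the other 12 libraries held 100.3 to 1075 (median 553). Heart and lung of F6849 stood at 3976 and 5866 near those levels, against 194 in pancreas and 3275 in thymus of F9150. The thymus was thus far above the 3 tissues of F9150 in the selection. Monax4B035448 differed less, with 336, 185 and 152 in F6849 and 68.4 to 147 (median 90.9) elsewhere, and its lowest F6849 library was narrowly above all 12 others. The thymus of F9150, at 159, was as high as that library. In the liver of F6852, Monax4B035448 reached 258, nearer to F6849 than to any of the remaining animals.

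F6849 alone was low in 13 members. Monax4B011102 held 70.4, 69.1 and 40.3 in its 3 tissues and 85.2 to 245 (median 143) in the other 12 libraries. Monax4B025163 held 75.6, 59.1 and 49.8 and 103 to 250.3 (median 139). In both genes every F6849 library was below every library of the other 4 animals in the selection. Heart of F6849 had the lowest value of all 20 libraries in both, with 24.1 for Monax4B025163. The reads were mapped to the genome of F6849, and whether that bears on the members in which it stood alone was not tested. Among the 3262 genes past level and range, F6849 was alone high in 378 and alone low in 195.

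F9150 alone was high in 7 members, led by Monax4B010789 and Monax4B031543, which hold the same counts in all 20 libraries and are therefore 1 measurement under 2 identifiers. Their N was 1269.8, 930.2 and 1795 in liver, kidney and spleen of F9150 and 105 to 384 (median 184) in the other 12 libraries. The pancreas of F9150 reached 4027, the highest value of the 20, and its thymus 551, against 274 and 159 in heart and lung of F6849. F9150 alone was low in 11. Monax4B014111 held 55.7, 31.1 and 14.9 in F9150 and 117 to 349.6 (median 191) elsewhere, and pancreas and thymus of F9150 were again below the lowest library of the other animals, at 53.4 and 93.5, while heart and lung of F6849 held 592 and 852. Monax4B003366 held 137, 97.2 and 85.9 in F9150 and 214 to 1033 (median 394) elsewhere, with 117 in pancreas and 131 in thymus. In both genes all 5 libraries of F9150 lay below all 15 libraries of the other animals.

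M4075 alone was high in 6 members. Monax4B021613 held 237, 249 and 335 in its liver, kidney and spleen and 41.2 to 116 (median 59.8) in the other 12 libraries of the selection, and the 5 further libraries, none from M4075, held 41.9 to 64.1, all on the low side. Monax4B043220 held 517, 570.4 and 968 against 213 to 473 (median 363), but lung of F6849 (738) and thymus of F9150 (1557) were as high or higher. M4075 alone was low in 10. Monax4B001494, next in animal share (95.8%), held 142, 148 and 221 in M4075 and 383 to 1309 (median 768) in the others. Its other animals were themselves ordered, with M4091 at 1271, 1309 and 1271 and M4046 at 383, 491 and 428 in liver, kidney and spleen, and tissue accounted for 1.17% of its sum of squares. Monax4B009873 was narrowly apart, with 360.2, 317 and 247 in M4075 and 387 to 958 (median 494) elsewhere.

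M4091 alone was low in 11 members. Monax4B034084 had an N of 0, 34.2 and 0 in liver, kidney and spleen of M4091, with 0 counts in liver and spleen, and 149.9 to 1672 (median 612) in the other 12 libraries. The liver of F6852 was high at 1532. Monax4B001354 held 46.9, 48.2 and 28.5 in M4091 and 83.1 to 228 (median 121) in the others. Among the abundant members, Monax4B039141 (mean N 17331) held 12657, 8673 and 4636 in M4091 and 10063 to 27109.6 (median 21851) elsewhere, so that its liver in M4091 exceeded spleens of other animals and only libraries of the same tissue were apart. Monax4B046642, named after its values were seen, held 3.91, 0 and 51.9 in M4091. The other 4 animals held 1067, 7391 and 40421 (F6849), 616, 539 and 17517 (F9150), 731, 1995 and 10605 (M4046) and 3277, 9742 and 81154 (M4075), in the order liver, kidney and spleen. The liver of F6852 was low at 8.82. Pancreas and thymus of F9150 were low too, at 9.71 and 17.7, although F9150 was high in the 3 tissues of the selection.

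M4046 alone was low in 5 members. Monax4B039908 held 54.3, 40.8 and 89.5 in M4046 and 156 to 659 (median 293) in the other 12, and the liver of F6852, at 11.0, was lower still. Monax4B025680, with tissue accounting for 0.512% of its sum of squares, held 4396, 5563 and 7024 in M4046 and 7677 to 13082 (median 10115) in the others. The last member inside the limit, Monax4B016629, held 215, 623 and 182 in M4046 and 563 to 1815 (median 859.8) elsewhere, where the kidney of M4046 exceeded spleens of other animals. Monax4B029875, ranked just before it, held 92.4, 105 and 62.2 and 87.3 to 250.0 (median 148), and the livers overlapped, since F9150 held 87.3. M4046 alone was high in 4, among them Monax4B019266, named after its values were seen, with 935, 246 and 349 in M4046 and 1.2 to 58.8 (median 9.65) in the other 12.

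In the remaining patterns 2 animals stood against 3. F9150, M4075 and M4091 were high in 6 members. Monax4B016962 held 105 to 340.2 (median 170.1) in their 9 libraries and 3.71 to 30.8 (median 14.5) in the 6 of F6849 and M4046. Monax4B033304 held 2237 to 4205 (median 2602) and 823 to 1432 (median 1069.6), and in both the sides did not overlap in any tissue. The libraries outside the selection followed the animals in Monax4B016962, with 9.35 and 19.8 in heart and lung of F6849 and 308 and 392 in pancreas and thymus of F9150. F6849, F9150 and M4075 were high in 5. Monax4B041242 had the widest gap of all members, 7.25 log2 units, with 449 to 19100.1 (median 2702) in the 9 libraries of these animals and 0 to 31.6 (median 3.91) in the 6 of M4046 and M4091, of which 3 had 0 counts. The F6852 liver held 0. Monax4B017627 held 1240.5 to 10859 (median 5124) on the high and 61.4 to 488 (median 358) on the low side. Pancreas and thymus of F9150 went with the low side for Monax4B041242 (14.6 and 5.05) and with the high side for Monax4B017627 (2546 and 3128).

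F6849, M4046 and M4075 were high in 5 members. Monax4B034911 held 201 to 3421 (median 433) in them and 14.9 to 86.8 (median 21.3) in F9150 and M4091, and Monax4B040569 held 151 to 437 (median 270.4) and 72.9 to 178 (median 118), with an overlap in liver, where F9150 held 178 and F6849 151. For Monax4B034911 the libraries outside the selection lay on the sides of their animals, with 235 and 492 in heart and lung of F6849, and 14.6 and 5.05 in pancreas and thymus of F9150. Monax4B018814, ranked in the third place with 92.5% and named after its values were seen, was high in F6849, M4075 and M4091, 136 to 467 (median 302), and low in F9150 and M4046, 16.2 to 43.5 (median 25.9). Heart and lung held 144 and 161, pancreas and thymus 46.1 and 31.6, and the F6852 liver 81.6.

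**Figure D3:**
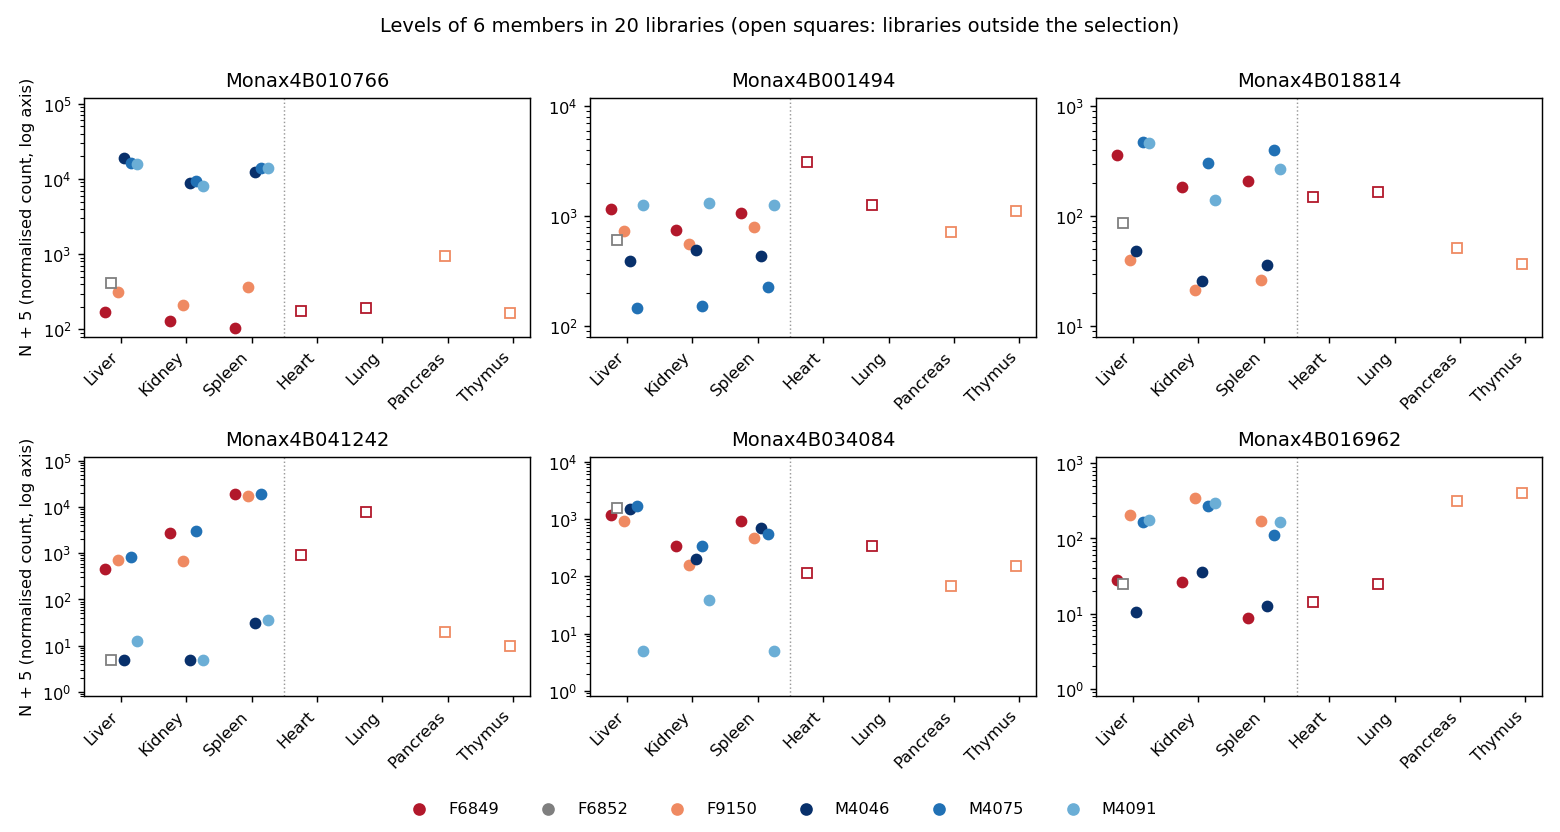
N + 5 on a log axis for 6 members in the 20 libraries, by tissue, with 1 colour per animal. Filled circles are the 15 libraries of the selection and open squares the 5 outside it, and in Monax4B010766 all open squares lie with the females at or below an N of 939 while the males lie at 7934 or above.

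To measure the pattern in libraries that did not choose the genes, the same selection was made on 2 tissues and read in the third. The 150 genes chosen on kidney and spleen had high and low animals that did not overlap in liver in 91 cases (60.7%). The share was 66.0% (99 of 150) in kidney for genes chosen on liver and spleen, and 69.3% (104 of 150) in spleen for genes chosen on liver and kidney. Among all genes that passed the level and the range on the same 2 tissues, and were split by the same rule, the shares were 35.0% of 3664 in liver, 33.2% of 4086 in kidney and 31.0% of 3599 in spleen. The chosen genes were thus apart more often, by 25.7 to 38.3 percentage points.

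The direction held for 132 genes in liver, 132 in kidney and 135 in spleen, of 150 each. Over all genes past level and range on the same tissues it held for 71.8% in liver, 68.7% in kidney and 65.7% in spleen. The median difference in the tissue left out was 0.75 log2 units in liver, 0.71 in kidney and 0.78 in spleen, against 1.28, 1.26 and 1.35 in the tissues that chose the genes. It was therefore smaller where it was not selected for, and still 1.64-fold to 1.72-fold at the median. Over all genes past level and range it was 0.36, 0.29 and 0.24. Of the genes chosen on 2 tissues, 58, 63 and 63 are among the 150 members. The libraries of the tissue left out come from the same 5 animals, and no test was made per gene, since 2 animals against 3 cannot give an exact p below 0.1.

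**Figure D4:**
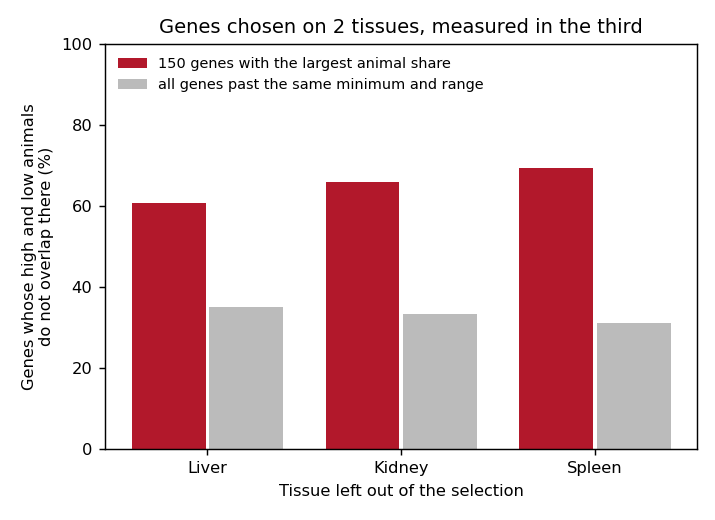
Percentage of genes (vertical axis, from 0) whose high and low animals do not overlap in the tissue left out of the selection (horizontal axis), for the 150 genes chosen on the other tissues (red) and for all genes past the same level and range (grey). The red bars stand at 60.7%, 66.0% and 69.3% and the grey ones at 35.0%, 33.2% and 31.0%, with no error bars since each is a count over genes in 5 animals.

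Heart, lung, pancreas and thymus gave another reading in libraries outside the selection, though from the same animals, since 2 of them come from F6849 and 2 from F9150. These animals were on opposite sides in 75 members. With F6849 high and F9150 low (38 members), both heart and lung exceeded both pancreas and thymus by at least 1 log2 unit in 20, and in 0 the order was reversed. Over all 16173 genes of the same level 3.17% showed the first order. With F9150 high and F6849 low (37 members), pancreas and thymus both exceeded heart and lung by that margin in 10, and in 0 the order was reversed, beside 1.19% of all genes. The 4 libraries are of 4 tissues and each tissue has 1 library, so that in these libraries alone animal and tissue cannot be told apart and no test was made.

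Without a margin, 26 of the 38 and 25 of the 37 members had the libraries of the high animal above those of the low one, and again 0 had the reverse. Over all genes that passed level and range, whatever their animal share, this order was found in 408 of the 1071 with F6849 high and F9150 low (38.1%), with 53 reversed. It was found in 102 of the 495 with F9150 high and F6849 low (20.6%), again with 53 reversed. Among the same genes, with F6849 high and F9150 low, the margin of 1 log2 unit was met by 177 of 1071 (16.5%), with 12 reversed, and with F9150 high and F6849 low by 31 of 495 (6.26%), with 16 reversed. The mean of heart and lung differed from that of pancreas and thymus in the direction of the selection in 67 of the 75 members, beside 69.7% of the 1566 genes past level and range with these animals on opposite sides. The plot of both differences shows these values gene by gene.

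**Figure D5:**
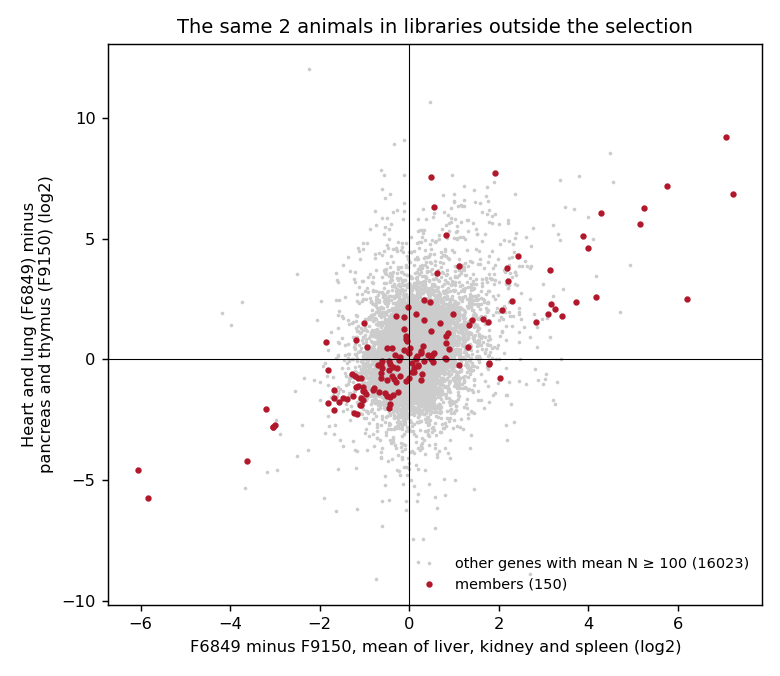
Difference between F6849 and F9150 in log2(N + 5), as the mean over liver, kidney and spleen (horizontal axis) and as heart and lung of F6849 minus pancreas and thymus of F9150 (vertical axis), for 16173 genes. The 150 members are red and the other genes grey, and in 67 of the 75 members with these animals on opposite sides both differences have the same sign, beside 69.7% of all genes past level and range with that split.

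The liver of F6852 tells whether a split by sex held in another female. Of the 20 members split between females and males, its level was nearer to the female livers than to the male livers in 14, namely 7 of the 11 with females above and 7 of the 9 with males above. Over the 321 genes with such a split that passed level and range the share was 73.5% (236), so that the 14 of 20 is close to the background and is no result about them. Over all 150 members, F6852 was nearer to the high livers in 77 and to the low livers in 73. It lay within the range of the 5 other livers in 121 members, above all of them in 9 and below all in 20.

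What the members share beyond the selection was looked for in the counts. In 69.0% of the 16173 genes all 15 counts were even numbers. At least 1 odd count among the 15 libraries was found in 83 members (55.3%), beside 31.0% of the 16173 genes of the same minimum level and 945 of the 3262 genes past level and range. In 4 equal classes of those genes by mean N, the share with an odd count was 28.6% to 33.7%, and among the members in the same classes 52.3% to 64.7%, so that it was higher among the members at each level. What makes a count odd was not tested.

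Members that moved together did so without lying side by side in the numbering. After the tissue means were removed, 17 of the 11175 pairs of members had a Pearson's r above 0.95 across the 15 libraries, which share animals. All 17 had the same split, which the selection on differences between animals makes likely. The same count over pairs of other genes is not given here. The 17 pairs joined 27 genes. Besides the identical pair, Monax4B014111 and Monax4B003505 were the closest, with an r of 0.995. Monax4B003505, named after its values were seen, held 35.3, 20.9 and 11.4 in liver, kidney and spleen of F9150 and 64.5 to 313 (median 116) elsewhere. Monax4B045317 and Monax4B028218, also named after their values were seen, had an r of 0.988, and both were high in F6849 alone, with 5409, 1089.6 and 4728 and 3847, 1670.2 and 10118 there. Both also passed 0.95 with Monax4B023275. Monax4B041242 and Monax4B017627 had an r of 0.969. In all, 2 pairs of members had identifiers at most 5 apart, and neither pair had the same split. How many such pairs a list of other genes of the same size would hold was not counted. Whether the numbers follow the position of genes on the genome is not given in the sources used here.

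Pairs of males were on opposite sides in fewer members than any other pair. M4046 was on the other side from M4075 in 56 members and from M4091 in 56, and M4075 from M4091 in 64. Every pair with a female, the pair of females included, was apart in 75 to 91 members, of which F6849 and M4091 were the farthest. Among the 3262 genes past level and range, pairs of males were likewise apart in fewer genes than any other pair. F6849 and M4091 were again the farthest there, so this order is not particular to the members. The median difference between individual means was 0.57 to 0.72 log2 units for pairs of males and 0.79 to 1.06 for the remaining pairs. Over all 16173 genes it was 0.16 to 0.22 and 0.21 to 0.25. The 20 members split by sex are part of these numbers. With 5 animals no test was made.

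By the column names the libraries had 8 lane numbers. No animal had a pair of its liver, kidney and spleen libraries under the same number. Animal and lane number are thus not the same split. Flow cells and batches of extraction or library preparation are not named there, so their part was not tested. Lung of F6849 and thymus of F9150 shared a lane number. The spleen of F6849 was the most deeply sequenced spleen, with 123267969 counts against 59487004 to 69512327. RNA input was 100 ng or 1 µg by the study's methods, and which library had which was not used here, so its part in the result was not tested.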

How the data were processed

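RNA-seq read counts were measured in 20 libraries of 6 woodchucks. The authors mapped reads with gem-tools rna-mapper 1.6.1 to their assembly monax4 and deposited raw counts per gene, made with gemtools 1.7.1 and the Monax4B annotation. No column of another sample was found. Samples were grouped by tissue and individual from the labels, and total counts ran from 59487004 to 140252555.

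Counts were divided by median-ratio size factors (N), and sums of squares of log2(N + 5) were split into tissue, animal and rest over 15 libraries. Genes with a mean N of at least 100 and individual means at least 1 log2 unit apart were ranked by the animal share and 150 kept. The members and the choices of genes to name were made with earlier results of these data known. The animal effect over all genes was tested with edgeR 4.0.16 (quasi-likelihood F test, TMM factors, tissue as covariate, Benjamini-Hochberg adjustment, false discovery rate 0.05) and, as an alternative, DESeq2 1.42.0. The code was tested on simulated data. Named were the 2 members with the largest animal share of each split with at least 5 members, the 2 most abundant, 2 on either side of the limit, and 7 chosen after their values were seen. Each library is 1 sample and each animal 1 replicate. Alternatives were another pseudocount, TMM factors, other limits, and leaving out each animal or tissue. Names, positions and sequences of the genes were not used here.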

Additional observations from a re-analysis of the deposited data

Results flagged for a closer look

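In 43 sets of values, the highest or lowest value was compared with its gap to the nearest other. Chance alone sets apart about 1 in 20 such sets, and 9 were set apart here. For 8 of the 37 named genes this was the mean log2(N + 5) of 1 animal against the other 4. These members were chosen for differences between animals, so the values describe the choice. M4046 stood apart with 12.44 in Monax4B025680, 8.77 in Monax4B019266, 5.99 in Monax4B039908 and 8.21 in Monax4B016629. F9150 stood apart with 5.14 in Monax4B014111 and 4.69 in Monax4B003505. M4075 stood apart with 8.11 in Monax4B021613, and M4091 with 3.31 in Monax4B034084. The total count of the spleen of F6849, 123267969, was far above that of the other 4 spleens.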

How the results depend on the processing

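Of 102 values under alternatives, 84 stayed within 1.5 times the reported one and 18 did not. The list shared 93 members with the one made with a range of 0.5 log2 units, and 58, 63 and 63 with those made without liver, kidney or spleen. Without 1 animal it shared 104 (F6849) to 125 (M4075), and with a mean N of at least 30 it shared 102. These last lists count as within 1.5 times, although not all of the 150 members were kept in them. DESeq2 called 2283 genes and 143 members. Without 1 animal edgeR called 48 to 129 genes and 29 to 47 members, the fewest without M4075, and fewer animals enter these fits. With a gap of 2 log2 units, heart and lung were above in 11 members and pancreas and thymus in 3, and without a gap pancreas and thymus were above in 25. In the tissue left out, genes chosen without 1 animal were apart in 61.3% to 69.3% (liver), 62.7% to 68.0% (kidney) and 68.0% to 72.0% (spleen). Over all genes past level and range these shares were 39.2% to 45.5%, 36.7% to 43.2% and 36.6% to 39.4%. The data rest on 5 animals with 1 library per tissue, and members with few counts in the low animals are limited by depth.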
